A study of Drosophila melanogaster with 12 samples.

Results

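The genes described here are 8 Drosophila melanogaster genes that act in mitosis and cytokinesis, namely the mitotic kinase genes polo and aurA, the chromosomal passenger complex genes aurB, Incenp and Det, and the central spindle genes pav, tum and feo. They were picked by name, and their probes were found by gene symbol in the platform's annotation, which named 11980 genes in all. It gave 1 probe each for aurB, Incenp, Det, tum and feo, so 5 of the 8 genes were measured. The genes polo, aurA and pav are not analysed here.

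The samples were pools of 50 to 100 neuroblasts and ganglion mother cells (GMCs) from the ventral nerve cord of stage 11 embryos raised at 25 degrees C. Their RNA was copied to cDNA, amplified by PCR and hybridised together with a common reference, for which about 30 entire w1118 embryos at stages 10 to 12 were used, to arrays read in a Cy3 and a Cy5 channel. The 6 samples labelled wildtype came from pros17/TM3-KrGFP embryos, which carry 1 pros17 allele over a balancer of chromosome 3, and the 6 mutant samples came from pros17/pros17 embryos, so pros17 was present in both groups. The cells were in Cy3 on replicates 1 to 3 of each group and in Cy5 on replicates 4 to 6, and dye and set of samples therefore cannot be told apart. Whether the samples are from separate embryos is not in the labels, and the p-values here speak of the spread among samples alone, which may be technical.

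Neuroblasts are the stem cells of the insect nervous system and divide again and again, each time budding off a GMC that divides once more into neurons or glia. Prospero is a homeodomain protein that passes into the GMC at this division and is known to repress genes of the cell cycle there. In mitosis the chromosomal passenger complex, which consists of the kinase Aurora B, the scaffold INCENP, Survivin (encoded by Det) and Borealin (borr), corrects attachments of chromosomes to the spindle and later moves to the spindle midzone. At the midzone, centralspindlin, made of the kinesin Pavarotti (pav) and the GTPase-activating protein Tumbleweed (tum), recruits Pebble (pbl), which is needed for the contractile ring, while Fascetto (feo), the relative of human PRC1, bundles antiparallel microtubules.

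Each array gave between 8421 and 10030 usable log2 ratios, and 8165 rows (genes, or probes with several symbols or none) were tested, each with 4 or more of 6 possible ratios per group. Positive ratios are taken to mean more RNA in the cells than in the reference, a direction that is likely although the labels do not state it: the median ratio of epidermal and tracheal markers and that of mesoderm and muscle markers were below 0 on 12 of 12 arrays, and that of neuroblast markers was above 0 on 12 of 12. The epidermal and tracheal median rests on 3 tested genes, and the mesoderm and muscle median on 4 at most. In wildtype ush (0.96) and twi (1.53) were above 0, unlike the other tested genes of these lists. The median of gut and yolk markers (3 tested) was below 0 on 10 arrays and above 0 on 2. Hemocyte and fat body markers, which a whole embryo also holds, had a median above 0 on 9 of 12 arrays. The prospero transcript itself was at 2.17 ± 0.99 (SD, n = 6) in wildtype and at -2.99 ± 0.69 (SD, n = 6) in the mutant. Wildtype replicates 4 to 6 stood apart from replicates 1 to 3: between these sets 1376 rows, 16.9% of those tested, passed in limma, against 15 rows (0.184%) between the same sets of the mutant. For this reason the differences of the measured genes are given over all arrays and within each dye. For some of the other genes named below, only the difference over all arrays is given.

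All 5 measured genes were above the whole-embryo reference in both groups. Over the 12 arrays, with dye as a term, the fitted log2 ratios in wildtype ran from 1.12 (SE 0.31, limma adjusted p = 0.00900) for aurB to 2.62 (SE 0.22, adjusted p = 1.41e-06) for Incenp. Of all rows, 37.8% passed as higher than the reference in wildtype, with a median ratio of 0.17 over all rows against 1.43 over the 5 genes. In the mutant the ratios ran from 2.22 (SE 0.22, adjusted p = 3.15e-06) for Det to 3.57 (SE 0.22, adjusted p = 1.10e-07) for Incenp. There 35.3% of all rows passed as higher, and the medians were -0.02 over all rows and 2.76 over the 5 genes. In a pool of cells, a larger share of dividing cells and more RNA per cell cannot be told apart. On the Cy5 arrays fitted alone, aurB was at 0.29 (limma adjusted p = 0.333) and Det at 0.50 (adjusted p = 0.165) in wildtype, and neither passed. The shares of all rows above are from the fit over 12 arrays.

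Between the groups, 1 of the 5 genes changed. The gene tum rose in the mutant, by 1.33 (SE 0.25, limma adjusted p = 0.0177) on the log2 scale or 2.52-fold. The other four differences were also above 0 and did not pass: 1.33 for aurB, 0.95 for Incenp, 0.94 for Det and 0.77 for feo, with adjusted p from 0.0759 to 0.377. Of all rows, 1.58% passed as higher in the mutant. At an unadjusted p under 0.05 in limma were 4 of the 5 genes, and 2110 of all 8165 rows in either direction. The median difference was 0.95 over the 5 genes and -0.13 over all 8165 rows. With each array centred on its median, which moved the median of all rows to 0.08, aurB, Incenp and Det passed beside tum (4 of 5 genes, with 5.16% of all rows higher). Without a dye term, or with the replicate number as a block, 0 of the 5 genes passed in limma, with 0.625% and 0.294% of all rows higher. At an unadjusted p under 0.05 were 3 and 4 genes, and 1722 and 1987 of all 8165 rows in either direction. In these fits tum had adjusted p = 0.0514 and 0.0657.

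**Figure D1:**
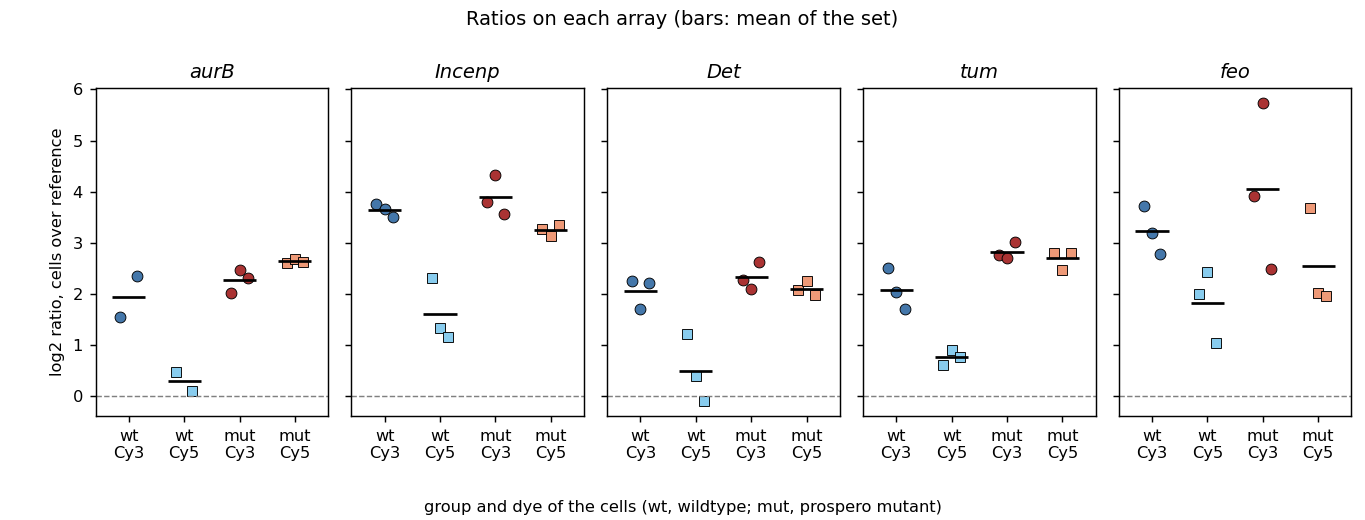
Log2 ratio of cells over reference on each array for aurB, Incenp, Det, tum and feo, by group and dye of the cells; points are arrays and bars are set means. In aurB, Incenp, Det and tum the wildtype Cy5 arrays lie below every mutant array, while the wildtype Cy3 arrays overlap with the mutant ones; feo is spread most in the mutant, from 1.97 to 5.73.

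The passenger complex genes showed the same layout over the arrays. Incenp, whose product holds the complex together and activates Aurora B, was at 3.75, 3.67 and 3.51 in wildtype replicates 1 to 3 and at 2.31, 1.34 and 1.16 in replicates 4 to 6. In the mutant it was at 3.80, 4.33 and 3.56 in replicates 1 to 3 and at 3.28, 3.13 and 3.34 in replicates 4 to 6. The first set of wildtype samples thus lay within the mutant range, and the second set lay below all mutant samples. The difference was 0.25 (SE 0.33, limma adjusted p = 0.772) with the cells in Cy3 and 1.65 (SE 0.33, adjusted p = 0.0102), or 3.13-fold, with the cells in Cy5.

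Det encodes the small inhibitor-of-apoptosis family protein of the complex, and it had the same pattern. Its ratios were 2.25, 1.70 and 2.22 in wildtype replicates 1 to 3 and 1.22, 0.39 and -0.09 in replicates 4 to 6. The mutant samples stayed between 1.98 and 2.62, above all wildtype Cy5 samples and around the wildtype Cy3 ones. The difference was 0.27 (SE 0.34, adjusted p = 0.767) in Cy3 and 1.60 (SE 0.34, adjusted p = 0.0132) in Cy5. Det lies on chromosome arm 3R. The balancer of chromosome 3 was in the wildtype animals only, so for all genes it cannot be told apart from the loss of prospero. Det is the measured gene on the same chromosome as the balancer. The other four measured genes lie on 2L (aurB), 2R (Incenp and tum) and X (feo).

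The kinase gene aurB had an exact 0, read as no ratio, in wildtype replicates 3 and 4. Its remaining wildtype ratios were 1.55 and 2.36 in replicates 1 and 2, and 0.48 and 0.11 in replicates 5 and 6. Its mutant ratios were 2.01, 2.48 and 2.32 in Cy3 and 2.61, 2.69 and 2.62 in Cy5, so the group ranges overlapped only through wildtype replicate 2. The difference was 0.32 (SE 0.33, adjusted p = 0.706) in Cy3 and 2.35 (SE 0.33, adjusted p = 0.00335), or 5.08-fold, in Cy5. With the zeros kept as values, the wildtype ratio over the reference was 0.75 and no longer passed (adjusted p = 0.0757), and the Cy3 difference was 0.97 (adjusted p = 0.544).

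The Borealin gene borr, which completes the complex and was not among the 8 genes, is on the list of partners given below. It was at 3.20, 3.90 and 3.09 in wildtype Cy3 samples and at 2.80, 1.53 and 1.71 in wildtype Cy5 samples. Mutant samples lay between 3.29 and 4.05. The Cy3 samples differed by 0.20 (adjusted p = 0.848), the Cy5 samples differed by 1.83 (adjusted p = 0.0116), and the pooled difference of 1.01 did not pass (adjusted p = 0.101).

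The centralspindlin gene tum had the least spread among mutant samples, which ran from 2.48 to 3.01. Its wildtype ratios were 2.51, 2.04 and 1.71 in replicates 1 to 3 and 0.62, 0.90 and 0.78 in replicates 4 to 6. All mutant samples were above all wildtype samples within each dye, and over all arrays only wildtype replicate 1 reached above the lowest mutant sample. In Cy3 tum was alone among the 5 genes in having no overlap between the groups, where 6.30% of all rows also had every mutant ratio above every wildtype ratio. Over all 12 arrays this held for 0 of the 5 genes and for 0.955% of all rows. The difference was 0.74 (SE 0.26, adjusted p = 0.263) in Cy3 and 1.93 (SE 0.26, adjusted p = 0.00201), or 3.81-fold, in Cy5. Leaving out any single array kept the call, with adjusted p from 0.0114 to 0.0480.

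The microtubule bundling gene feo did not follow this layout. Its wildtype ratios were 3.72, 3.19 and 2.78 in Cy3 and 2.01, 2.44 and 1.05 in Cy5. Its mutant ratios were 3.92, 5.73 and 2.50 in Cy3 and 3.68, 2.01 and 1.97 in Cy5. The groups overlapped in both dyes, and the SD of 1.45 in the mutant was above that of 0.94 in wildtype. The difference with the cells in Cy3 was 0.82 (SE 0.76, adjusted p = 0.671), and that with the cells in Cy5 was 0.72 (SE 0.76, adjusted p = 0.604). Without mutant replicate 2, the highest sample, the pooled difference was 0.39 (adjusted p = 0.615) and the Cy3 difference was -0.02. The Cy3 difference was 1.59 without mutant replicate 3, and the Cy5 difference was 0.16 without mutant replicate 4 and 0.33 without wildtype replicate 6.

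Within the Cy5 arrays, 4 of the 5 genes rose in the mutant (aurB, Incenp, Det and tum), against 5.51% of all rows higher. Every mutant ratio of these 4 genes was above every wildtype ratio there, which held for 14.9% of all rows. These tests share the estimate of spread over the 12 arrays. With the 6 Cy5 arrays fitted by themselves, 2 genes passed, aurB (adjusted p = 0.0184) and tum (adjusted p = 0.0143), against 2.38% of all rows higher. Within the Cy3 arrays 0 of 5 genes passed in limma, and 0.0122% of all rows were called higher. At an unadjusted p under 0.05 there were 1 of the 5 genes, tum, and 1152 of all 8165 rows in either direction. The test of whether the difference itself depends on the dye set did not pass for any of the 5 genes in limma. Its estimates, Cy5 minus Cy3, were 2.03 for aurB (SE 0.46, adjusted p = 0.102), 1.39 for Incenp (SE 0.47), 1.33 for Det (SE 0.48), 1.19 for tum (SE 0.37) and -0.10 for feo (SE 1.07). For 4 of them the unadjusted p was under 0.05, as it was for 1280 of all 8165 rows in either direction. After adjustment 0.416% of all rows passed this test in either direction. Without wildtype replicate 3 aurB passed it (adjusted p = 0.0425), and without wildtype replicate 4 Incenp did (adjusted p = 0.0498).

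**Figure D2:**
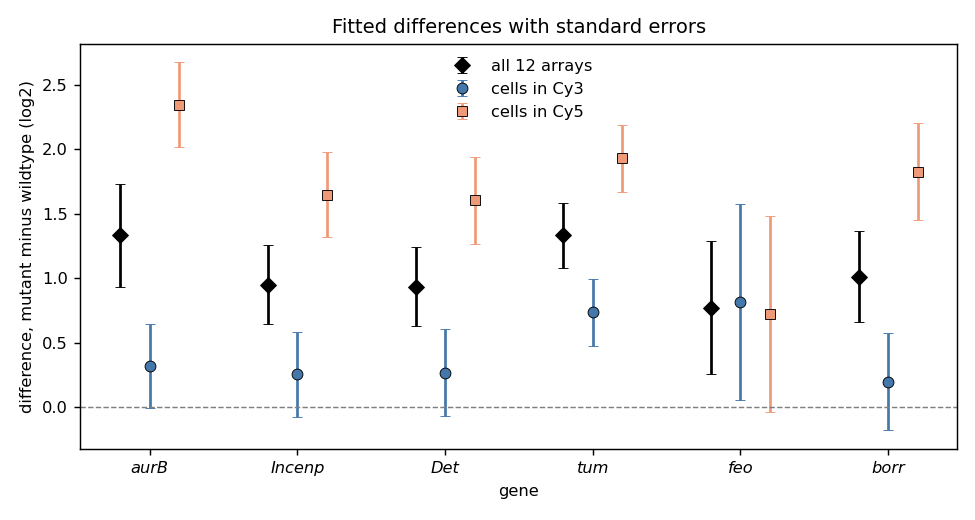
Fitted difference, mutant minus wildtype (log2), with its standard error, over all 12 arrays and within each dye of the cells, for the 5 measured genes and borr. In aurB, Incenp, Det, tum and borr the Cy5 difference, from 1.60 to 2.35, lies above the Cy3 difference, from 0.20 to 0.74; in feo they are 0.72 and 0.82.

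Between the wildtype sets, 4 of the 5 genes passed as lower with the cells in Cy5. The difference, Cy5 minus Cy3, was -2.04 for Incenp (SE 0.33, limma adjusted p = 0.00525), -1.66 for aurB (adjusted p = 0.0192), -1.56 for Det (adjusted p = 0.0154) and -1.32 for tum (adjusted p = 0.0110). Of all rows, 11.0% passed as lower. The value for feo was -1.40 (adjusted p = 0.224). Between the same sets of the mutant, 0 of 5 genes passed in limma, with 0 at an unadjusted p under 0.05 and differences from -1.49 (feo) to 0.37 (aurB). After quantile normalization only Incenp and tum passed between the wildtype sets, and these 2 also passed without wildtype replicate 1, where aurB could not be fitted and Det had adjusted p = 0.0579. With all deposited values kept, the value for aurB between these sets was -1.11 and did not pass (adjusted p = 0.257). The SD over all samples of a group was larger in wildtype than in the mutant for aurB (1.02 and 0.25), Incenp (1.19 and 0.44), Det (0.97 and 0.23) and tum (0.77 and 0.17), where the median SDs of all rows were 0.69 and 0.51.

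Neuroblast and neuron markers moved along the same arrays. Of 7 neuroblast markers, 4 were higher than the reference in wildtype, 2 lower (mira and klu) and 1 did not pass. Of all rows, 37.8% were higher there and 28.5% lower. In the mutant all 7 neuroblast markers were higher, against 35.3% of all rows. Their median ratio was between 0.98 and 1.45 on wildtype Cy3 arrays, between 0.17 and 0.44 on wildtype Cy5 arrays and between 1.47 and 1.96 on mutant arrays. Of 9 neuron markers 6 were tested. In the mutant 3 fell (nSyb, VAChT and ChAT), against 3.37% of all rows lower. The other 3 did not pass in limma, with brp at -2.47 (adjusted p = 0.0896), elav at 0.14 (adjusted p = 0.840) and fne at -0.29 (adjusted p = 0.777). The genes nSyb, VAChT and ChAT lie on chromosome 3, as do the neuroblast markers mira, klu and wdn. This is the chromosome of the balancer, which cannot be told apart from the loss of prospero for any gene. Between the wildtype sets, where 5.83% of all rows passed as higher in Cy5, 3 of the 6 neuron markers did. Their median ratio was between -0.07 and 0.79 on wildtype Cy3 arrays, between 2.16 and 2.66 on wildtype Cy5 arrays and between -1.88 and 0.40 on mutant arrays. The wildtype arrays with the lowest mitotic gene ratios were thus those with the lowest neuroblast and the highest neuron marker medians, and the mean of Incenp, Det, tum and feo was between 2.56 and 3.06 on wildtype Cy3, between 0.72 and 1.54 on wildtype Cy5 and between 2.47 and 3.71 on mutant arrays. Glial markers (5 of 7 tested) had medians between 0.01 and 1.13 in wildtype and between -0.91 and 0.58 in the mutant. Mesoderm and muscle markers (4 of 9 tested) had medians between -0.94 and -0.08 in wildtype and between -3.29 and -0.97 in the mutant. In both lists the ranges of the wildtype Cy3 and Cy5 arrays overlapped. Of 7 tested hemocyte and fat body markers 1 rose in the mutant, SPARC (1.37, limma adjusted p = 0.0158), and 6 did not pass. Of 3 tested epidermal and tracheal markers 1 rose, pnr (2.20, adjusted p = 0.0304), and 2 did not pass. Of all rows, 1.58% passed as higher. Both genes lie on 3R. Of 4 germline markers (vas, nos, pgc and osk), 0 had enough ratios to be tested. The part of these marker shifts in the results for the mitotic genes was not tested.

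**Figure D3:**
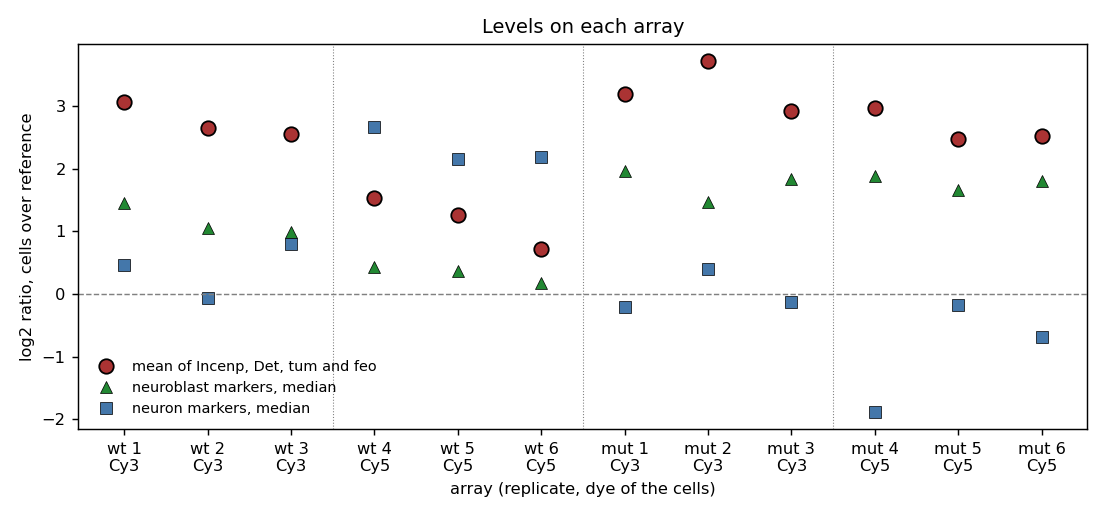
Mean log2 ratio of Incenp, Det, tum and feo on each array (circles), with the median of the tested neuroblast markers (triangles) and neuron markers (squares). On wildtype replicates 4 to 6 the mitotic genes, at 0.72 to 1.54, and the neuroblast markers are at their lowest and the neuron markers, at 2.16 to 2.66, at their highest.

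Partners of these proteins and other mitotic kinases shared part of the pattern. Of 23 listed genes 13 were tested, and 3 rose, 0 fell and 10 did not pass, with a median difference of 0.96 against -0.13 over all rows, of which 1.58% were higher and 3.37% lower. The 3 were ball, which encodes a histone kinase (1.04, SE 0.23, adjusted p = 0.0278), SAK, the Polo-family kinase gene of centriole duplication (1.06, SE 0.26, adjusted p = 0.0409), and tws, a regulatory subunit gene of the phosphatase PP2A (0.96, SE 0.22, adjusted p = 0.0308). In Cy3 the differences of ball, SAK and tws were 0.60, 0.66 and 0.48, and none passed (limma adjusted p = 0.357, 0.417 and 0.408). In Cy5 they were 1.49, 1.45 and 1.45 (adjusted p = 0.00709, 0.0200 and 0.00402). All 3 genes lie on chromosome 3, as pbl does, so that the balancer and the loss of prospero cannot be told apart for them. The largest differences of the list were those of sub, a kinesin gene of the passenger complex's midzone partners (1.47, adjusted p = 0.0583), and mei-38, a spindle gene (1.16, adjusted p = 0.0559). Within Cy5 7 of the 13 rose, against 5.51% of all rows, with a median of 1.45, and within Cy3 0 passed in limma (0 at an unadjusted p under 0.05), with a median of 0.47. The count of 3 became 0 when wildtype replicate 5 or 6, or mutant replicate 4 or 6, was left out, and 1 when mutant replicate 5 was. The call for SAK was lost in 9 of the 12 omissions of a single array, with adjusted p up to 0.0991. Without a dye term, with the replicate block or with all deposited values kept the count of 3 became 0. After median centring it became 7, with 421 of 8165 rows called higher. It became 5 after quantile normalization, where all 12 ratios were required and on the Cy5 arrays alone. In these fits 313 of 8165, 191 of 6361 and 205 of 8629 rows were called higher.

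Contractile ring and abscission genes had a lower median difference, which was not tested against the other lists. Of 22 listed genes 16 were tested, and 1 rose, 0 fell and 15 did not pass, with a median difference of 0.24, against 1.58% of all rows higher, 3.37% lower and a median of -0.13. The 1 was pbl, whose product binds Tumbleweed, with a wildtype mean of 0.08 ± 0.70 and a mutant mean of 1.52 ± 0.40 (SD, n = 6 per group). Its difference was 1.45 (SE 0.33, adjusted p = 0.0308), with 0.60 in Cy3 and 2.29 in Cy5 (adjusted p = 0.00199). The call for pbl was lost without wildtype replicate 3, 5 or 6 or mutant replicate 4, 5 or 6, with adjusted p from 0.0527 to 0.0791, with the replicate block (adjusted p = 0.0787) and with all deposited values kept (adjusted p = 0.0752). After median centring the count was 2 of 16, with 5.16% of all rows higher. Next in size was the septin gene Septin4, with a difference of -0.97 (adjusted p = 0.0860). Within Cy5, where 5.51% of all rows were higher, 2 of the 16 rose, pbl and the anillin gene scra (1.48, adjusted p = 0.0449, chosen after its values were seen), and the median was 0.26.

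Of 14 central spindle and motor genes 7 were tested, and 0 passed in limma, with a median difference of 0.97. At an unadjusted p under 0.05 were 4 of the 7, and 2110 of all 8165 rows in either direction. All 7 passed as higher than the reference in both groups, as did 37.8% of all rows in wildtype and 35.3% in the mutant. The count of 0 became 3 after median centring, 4 after quantile normalization, 2 of 6 tested where all 12 ratios were required and 2 on the Cy5 arrays alone. Of all rows, 421 of 8165, 313 of 8165, 191 of 6361 and 205 of 8629 were called higher in these fits. The count was 1 without wildtype replicate 1, 3 or 4, where 213 of 7937, 93 of 7835 and 144 of 7698 rows were called higher. The largest differences were those of mars, a mitotic spindle gene with 5 wildtype ratios (1.48, adjusted p = 0.122, but -1.55 with all deposited values kept), and of sub, which also stands on the list of partners. For mars the larger difference was in Cy3 (2.24, against 0.53 in Cy5), unlike the passenger complex genes. Within Cy5 3 of the 7 rose, against 5.51% of all rows, with a median of 1.48. Within Cy3 0 did in limma, with a median of 0.36. There 1 of the 7, and 1152 of all 8165 rows, were at an unadjusted p under 0.05.

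**Figure D4:**
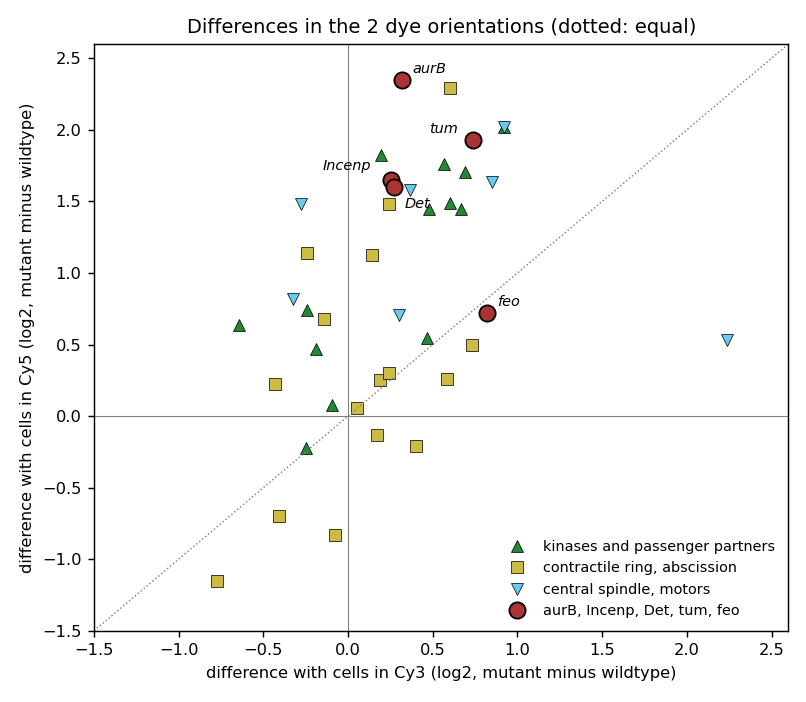
Differences, mutant minus wildtype (log2), with the cells in Cy3 (horizontal) and in Cy5 (vertical), for the 5 measured genes and the tested genes of the 3 partner lists; the dotted line marks equal values. Incenp, Det and aurB lie far above the line, at Cy3 differences from 0.25 to 0.32; the Cy5 differences of the contractile ring and abscission genes run from -1.15 (Septin4) to 2.29 (pbl).

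Across the 12 arrays the genes were more alike between the sets of samples than within them. Over arrays with both values, Pearson's r was between 0.82 and 0.91 for the 6 pairs among aurB (10 arrays), Incenp, Det and tum, and between 0.41 and 0.72 for the pairs with feo. After the mean of each group and dye set was subtracted, the same pairs ran from -0.46 to 0.55. The arrays of a set share the dye of the cells, and all arrays share the reference, so these are descriptions. Among 6361 rows with all 12 ratios, the named genes whose profile was most like the mean of Incenp, Det, tum and feo were CG5199 (r = 0.979), Orct, an organic cation transporter gene (0.968), CG33111 (0.961), kni, a nuclear receptor family gene of the embryo (0.960), and D, a Sox gene (0.957). The median r over all these rows was 0.06. Within the group and dye sets, r was from 0.688 (kni) to 0.889 (CG5199) for these genes. They were picked by r on the same arrays, so their r within the sets is not independent of that choice. Of Incenp, Det, tum and feo, feo had the largest SD within the mutant sets (1.62 in Cy3 and 0.98 in Cy5) and so weighs most in the mean there. Of the 5, CG5199 passed between the groups (difference 0.96, limma adjusted p = 0.0474), and the other four had differences from 0.74 to 1.43 that did not.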

How the data were processed

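The deposited values are log2 ratios of the cell and reference channels of 12 arrays. What scanner, background correction, normalization and centring the authors used is not given in the sources used here. Base 2 was read from the values: raised as powers of 2, one-channel values fell on even steps (mean miss under 0.05 of a step) on 5 of 9 arrays examined, and on 0 arrays for base e or 10. Exact zeros (22.1% to 38.6% of an array) and values beyond 11 in size were set to missing. Probes of a gene were averaged. Spot intensities were not used, so signal over background is unknown, and the number of arrays limits the precision.

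Differences were fitted on all rows with limma 3.58.1 (lmFit, eBayes; R 4.3.3), using a centred dye term, or a mean per group and dye for the comparisons within a dye. P-values were adjusted by Benjamini-Hochberg over all rows, at 0.05. The fits were tested on simulated data with independent noise and no difference between the wildtype sets, unlike the real arrays. Genes and lists were chosen with earlier results of these data known. Named are the 8 genes, prospero, partners past the threshold, the 2 largest differences of each list and the 5 most alike genes; borr is added as the remaining passenger subunit. Chromosome arms are RefSeq's. Alternatives covered missing values, centring, scaling, filters, dye term, block, orientation and each array left out.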

Additional observations from a re-analysis of the deposited data

How the results depend on the processing

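The pooled difference of each of the 5 genes kept its sign under all alternatives run, but the Cy3 difference of feo was -0.02 without mutant replicate 2, and its dye dependence (-0.10) changed sign under some alternatives. The number of genes past the threshold between the groups was 1, and it was 1 without each single array, 4 after median centring, 0 without a dye term, 0 with the replicate block, 0 on the Cy3 arrays and 2 on the Cy5 arrays alone. Without wildtype replicate 1, 2, 5 or 6, aurB could not be fitted and 4 genes were tested. The median difference of the tested genes was 1.40 after quantile normalization, 0.32 on Cy3 and 1.65 on Cy5 arrays. It was between 0.75 and 1.11 without single arrays. Over all rows 404 passed, 132 with all deposited values kept, 641 after centring, 187 without a dye term, 105 with the replicate block, 2 on Cy3 arrays, and between 119 and 562 without single arrays (144 and 153 when wildtype replicates 5 and 6 were left out, 269, 119 and 163 when mutant replicates 1, 4 and 6 were). Calls were 129 higher and 275 lower, 421 and 220 after centring, and 313 and 178 after quantile normalization. Same-numbered samples were not treated as pairs: the correlation of their deviations was above 0 for all 6 numbers, but over 0.1 for 3 of 6 (from group and dye means) or 4 of 6 (from group means). On the Cy5 arrays fitted alone, 2 of 5 genes passed between the groups where the shared spread gave 4. Over the reference in wildtype, aurB and Det did not pass there. Without single arrays, the count with the shared spread was 4 of 5, or 3 of 4 where aurB could not be fitted. Between the wildtype dye sets 2 genes passed after quantile normalization and from 2 to 4 without single arrays; the test of the dye dependence ran from 0 to 1. The gene mars turned to -1.55 with all deposited values kept, where one-channel values enter. The cause of the other shifts was not tested. Comparisons within a dye and those of the partner lists under alternatives were added after the data had been seen. Dim spots could not be told from bright ones.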
